A study of Homo sapiens with 24 samples.

Results

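The enzymes described here make serine, asparagine and proline, or carry one-carbon units from serine on folate inside mitochondria. They are PHGDH, PSAT1 and PSPH (serine synthesis), SHMT2, MTHFD2, MTHFD1L and ALDH1L2 (mitochondrial folate), ASNS (asparagine synthesis), and ALDH18A1 and PYCR1 (proline synthesis). They were chosen by name, as the rows of the expected-count table whose Ensembl identifiers carry these symbols in GENCODE release 44, and all 10 were found among the 60675 genes of the table. All 10 also passed the filter on low counts in every comparison.

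RNA was sequenced from SW1783 cells, a human astrocytoma line, after 24 h with an extract of Schisandrae Fructus, the fruit of Schisandra chinensis. The water extract (WESF) was given at 20, 100 or 500 µg/mL to cells of batch A, and the 70% ethanol extract (EESF) at 12.4, 62 or 310 µg/mL to cells of batch B. Vehicle A and vehicle B received PBS with 0.1% DMSO for the same time, which gives 8 groups of 3 libraries. These doses are called low, medium and high below, and by the study's methods the high WESF dose showed no toxicity in a screen and the high EESF dose matched the IC20 of that extract. Each extract was tested in its own batch and at its own doses, so that extract, dose and batch cannot be told apart. The labels do not say whether the replicates were separate cultures, and p-values measure the spread between these libraries, which may be technical.

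Serine is built from the glycolytic intermediate 3-phosphoglycerate by PHGDH, PSAT1 and PSPH in turn. SHMT2 then splits serine into glycine and a one-carbon unit bound to folate, and MTHFD2 and MTHFD1L oxidize and release that unit as formate, which leaves the mitochondrion and feeds purine and thymidylate synthesis in the cytosol. In many cell types the genes of these enzymes, and that of ASNS, are targets of the transcription factor ATF4, which is made when amino acids are scarce or unfolded protein accumulates, and ATF4 binds composite C/EBP-ATF elements in their promoters.

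Letters of that element were searched in the 300 bases around transcription starts (250 before, 50 after) that RefSeq lists on GRCh38.p14, where 6 of the 10 genes are present with 10 windows. PSPH, SHMT2, ALDH1L2 and PYCR1 were not searched. The motif TGATGNAA, or TTNCATCA on the other strand, is in 3.617% of all 35116 windows and in windows of ASNS and MTHFD1L. The narrower TTGCATCA (TGATGCAA on the other strand), every match of which also matches TGATGNAA, is in 0.8657% of windows and, of the 6 genes searched, in MTHFD1L alone. The E-box CACGTG, which is its own reverse complement and shares no match with the other motifs, is in 7.256% of windows and in those of ALDH18A1 and MTHFD1L. The E-box match of MTHFD1L is not shown. PHGDH, PSAT1 and MTHFD2 were searched too and had no match to any of these motifs. For ASNS, MTHFD1L and ALDH18A1, the genes with a match, 1 stretch each is shown, and capitals mark the matched letters. For ALDH18A1 these are the E-box and not the C/EBP-ATF element. Whether the letters bear on the changes of the genes was not tested. ASNS and MTHFD1L are kept to 30 bases because other transcripts start nearby. Each is written 5′ to 3′ on the gene's strand, from chr7:97872459-97872488 (minus strand) for ASNS, chr6:150866346-150866375 (plus strand) for MTHFD1L and chr10:95656712-95656881 (minus strand) for ALDH18A1.
ASNS: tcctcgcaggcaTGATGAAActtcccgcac
MTHFD1L: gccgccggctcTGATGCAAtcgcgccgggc
ALDH18A1: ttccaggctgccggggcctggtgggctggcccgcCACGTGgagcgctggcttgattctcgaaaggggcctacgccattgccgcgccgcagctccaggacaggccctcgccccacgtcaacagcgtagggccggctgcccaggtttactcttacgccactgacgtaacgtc
The matches lie 68 to 61 bases before 1 of the 2 RefSeq starts of ASNS, 129 to 122 before 1 of the 4 of MTHFD1L and 136 to 131 before the single start of ALDH18A1. The stretches of ASNS and MTHFD1L lie inside the annotated genes, downstream of their outermost 5′ ends, and that of ALDH18A1 lies upstream of its gene. A match is a description of the letters and not a measured binding site.

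In vehicle-treated cells the enzymes differed widely in level. Per kilobase of the canonical transcript, the mean over the 6 vehicle libraries was 52.7 CPM (counts scaled to library size) per kb for SHMT2, 38.7 for ALDH18A1, 35.7 for PYCR1, 31.6 for PSAT1, 21.8 for ASNS, 18.7 for PHGDH, 16.5 for MTHFD2, 11.6 for PSPH, 11.2 for MTHFD1L and 3.32 for ALDH1L2. The SD over these libraries was between 0.133 (ALDH1L2) and 2.10 (SHMT2). Neighbours in this order did not overlap, except ALDH18A1 with PYCR1 and PSPH with MTHFD1L. Within serine synthesis, PSPH was thus the lowest of the 3 transcripts and PSAT1 the highest. Between vehicle B and vehicle A none of the 10 passed an adjusted p of 0.05 (edgeR's quasi-likelihood test), against a background of 0% of 13001 genes, with 0 of the 10 and 371 of all genes at an unadjusted p under 0.05, and the log2 fold changes lay between -0.11 (PSPH) and 0.07 (ALDH1L2).

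**Figure D1:**
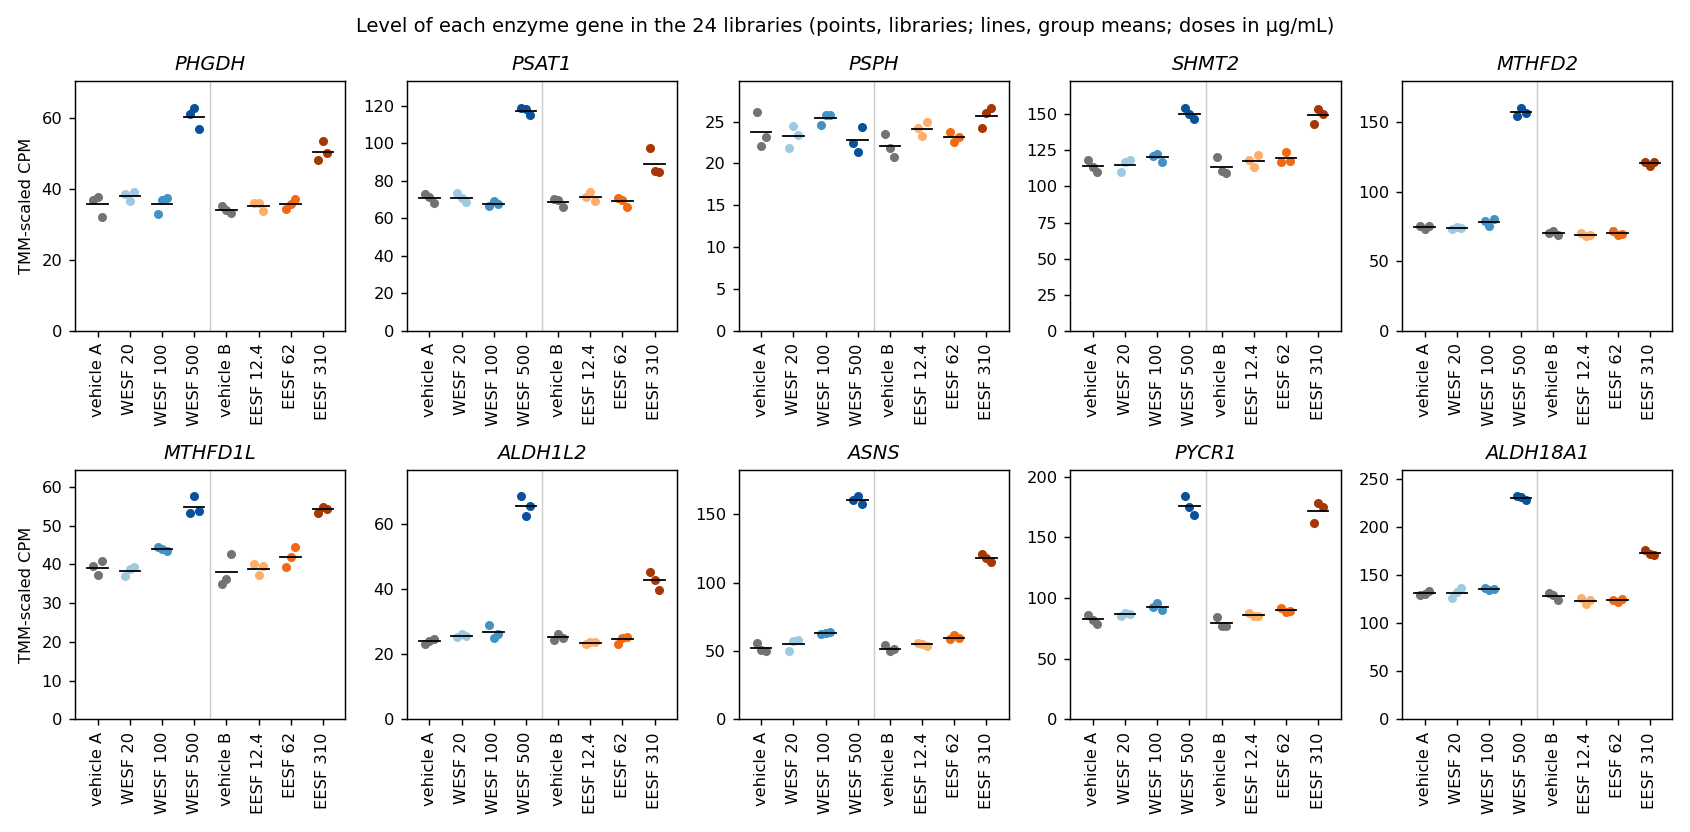
Level of each of the 10 enzyme genes (vertical axis, TMM-scaled CPM from 0) in the 8 groups (horizontal axis, doses in µg/mL), with a point for each library and a line at the mean of 3. At the high doses the points stand above their vehicle in every panel except that of PSPH, where the WESF points overlap those of vehicle A.

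The high dose of both extracts raised nearly all of these transcripts, and the lower doses moved few. At the high WESF dose 9 of the 10 genes rose and none fell, against a background of 34.3% of 13129 genes that rose, and 7 of them also passed a fold of 1.5, against 11.1%. At the high EESF dose all 10 rose, against 29.3% of 13092 genes, and 4 passed the fold of 1.5, against 8.21%. The call of PSPH there was lost in 5 of its 12 alternatives, and 9 to 10 genes passed when a library was left out. The median log2 fold change of the 10 was 0.78 with WESF and 0.54 with EESF, beside 0.00 and 0.01 for all genes tested. In single libraries the median ratio of the 10 genes to the vehicle mean was 0.80, 0.82 and 0.75 on the log2 scale at the high WESF dose and 0.50, 0.59 and 0.54 at the high EESF dose, so every library showed it.

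At the medium dose of WESF only ASNS rose, against a background of 1.89% of 13112 genes, and at the medium dose of EESF ASNS and PYCR1 rose, against 6.9% of 12978 genes. When a library was left out, 0 to 2 of the 10 passed at the medium dose of either extract. At the low dose 0 of the 10 passed with either extract in edgeR's test, and 0 in DESeq2's, as was the case between the vehicles. The background there was 0% of 13131 genes with WESF, where 470 genes and none of the 10 had an unadjusted p under 0.05, and 9.35% of 12892 genes in either direction with EESF, where 3393 genes and 1 of the 10 (PYCR1, chosen for this mention after its values were seen) had an unadjusted p under 0.05. With WESF the median log2 fold change of the 10 was 0.08 (medium) and 0.01 (low), and with EESF 0.07 and 0.04. The high dose set directly against the low dose of the same batch, which leaves the vehicles out, raised 9 of the 10 with WESF (34.1% of 13100 genes rose) and 9 with EESF (28.7% of 13197 genes), all but PSPH in both cases.

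**Figure D2:**
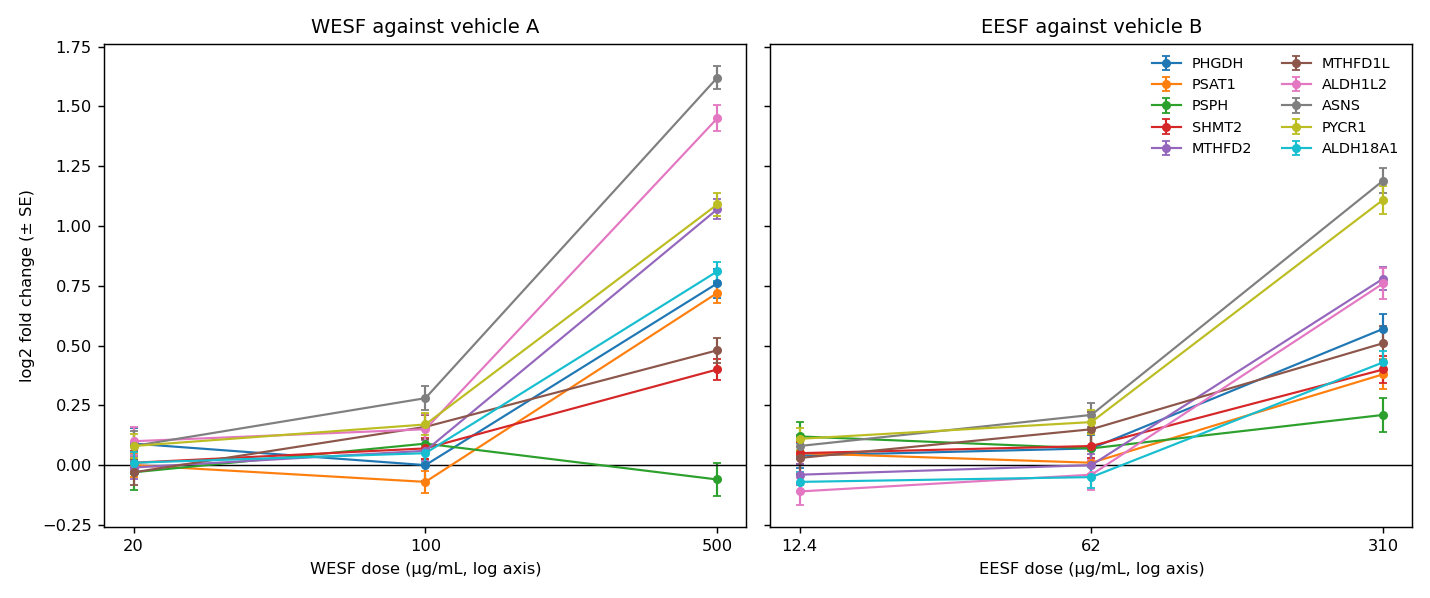
The log2 fold change of each enzyme gene against the vehicle of its batch (vertical axis, bars ± SE, 3 libraries against 3) at each dose (horizontal axis, µg/mL, log scale), with WESF on the left and EESF on the right. The curves are close to 0 at the low and medium doses, where the highest value is the 0.28 of ASNS, and part at the high dose.

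Serine synthesis rose at its first and second steps and not evenly at its last. PHGDH (ENSG00000092621, chromosome 1, 119648411 to 119744218), the dehydrogenase that commits 3-phosphoglycerate to serine, had 36.9, 37.9 and 32.2 CPM in the libraries of vehicle A and 61.2, 62.9 and 56.8 CPM at the high WESF dose. It had 35.2, 34.0 and 33.1 CPM in vehicle B and 48.1, 53.5 and 50.2 CPM at the high EESF dose. The treated libraries lay above all vehicle libraries of their batch. The log2 fold change was 0.76 ± 0.061 (SE) with WESF (1.69-fold, adjusted p = 8.76e-09, edgeR) and 0.57 ± 0.062 with EESF (1.48-fold, adjusted p = 8.39e-06), or 0.60 and past the fold of 1.5 without the first library of the high EESF dose. At the medium doses PHGDH had 33.1 to 37.3 CPM with WESF and 34.2 to 37.1 CPM with EESF, which overlapped the vehicles.

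PSAT1 (ENSG00000135069, chromosome 9, 78297125 to 78330093), the transaminase that takes nitrogen from glutamate, had 72.9, 71.3 and 68.3 CPM in vehicle A and 119, 118 and 115 CPM at the high WESF dose. In batch B it had 70.01, 69.6 and 65.9 CPM in the vehicle and 97.2, 85.2 and 84.4 CPM at the high EESF dose, where the first library stood above the other two. Neither pair of groups overlapped. PSAT1 rose by 0.72 ± 0.044 on the log2 scale with WESF (1.65-fold, adjusted p = 2.89e-10, edgeR) and by 0.38 ± 0.063 with EESF (adjusted p = 0.00026).

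PSPH (ENSG00000146733, chromosome 7, 56011051 to 56051604), the phosphatase that releases serine, departed from the others. It had 26.1, 22.1 and 23.2 CPM in vehicle A and 22.5, 21.3 and 24.4 CPM at the high WESF dose, and these groups overlapped. The log2 fold change there was -0.06 ± 0.071 (95% interval -0.22 to 0.09, adjusted p = 0.433, edgeR). With EESF it had 23.6, 21.9 and 20.8 CPM in the vehicle and 24.2, 26.0 and 26.7 CPM at the high dose, a rise of 0.21 ± 0.070 (adjusted p = 0.0187) that ended in 5 of its 12 alternatives, with the adjusted p between 0.00553 and 0.0891. RSEM gave PSPH values that were not whole in 9 of 24 libraries, since some of its reads also match other places, and its pseudogene PSPHP1 had a mean of 1.28 counts beside the 585 of PSPH.

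Among the mitochondrial folate enzymes, MTHFD2 and ALDH1L2 changed most, SHMT2 and MTHFD1L less. SHMT2 (ENSG00000182199, chromosome 12, 57229573 to 57234935), which takes the one-carbon unit from serine, had 118, 114 and 110.3 CPM in vehicle A and 155, 150.2 and 147 CPM at the high WESF dose. It had 120.3, 110.8 and 109 CPM in vehicle B and 143, 154 and 150.4 CPM at the high EESF dose. The groups did not overlap, and the rise was 0.40 ± 0.044 with WESF (adjusted p = 4.01e-07, edgeR) and 0.40 ± 0.055 with EESF (adjusted p = 6.49e-05). SHMT2, the highest of the 10 in level per length, thus had the lowest fold change of those that rose with WESF. RSEM gave SHMT2 values that were not whole in 3 of 24 libraries.

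MTHFD2 (ENSG00000065911, chromosome 2, 74186172 to 74217565), the dehydrogenase and cyclohydrolase of the mitochondrial route, had 75.1, 73.0 and 75.6 CPM in vehicle A and 154, 160.2 and 157 CPM at the high WESF dose. With EESF it went from 70.4, 71.5 and 69.0 CPM in the vehicle to 122, 118 and 121 CPM. All treated libraries lay well above the vehicles, with a log2 fold change of 1.07 ± 0.043 for WESF (2.11-fold, adjusted p = 1.84e-12, edgeR) and 0.78 ± 0.049 for EESF (1.71-fold, adjusted p = 1.3e-07). At the low and medium doses MTHFD2 stayed between 72.8 and 80.2 CPM with WESF and between 67.8 and 71.6 CPM with EESF. RSEM divided some of its reads in all 24 libraries, and its 7 pseudogenes in the table had a mean of 0.208 counts in all beside the 2192 of MTHFD2.

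MTHFD1L (ENSG00000120254, chromosome 6, 150865679 to 151101887), the formyl-tetrahydrofolate synthetase that frees formate, had 39.5, 37.2 and 40.9 CPM in vehicle A and 53.2, 57.5 and 53.9 CPM at the high WESF dose. In vehicle B it had 35.0, 36.3 and 42.6 CPM and at the high EESF dose 53.4, 54.9 and 54.2 CPM. The third library of vehicle B was the highest of the 6 vehicle libraries and still lay below every high-dose library. MTHFD1L rose by 0.48 ± 0.053 (1.40-fold, adjusted p = 3.75e-07, edgeR) and by 0.51 ± 0.072 (1.43-fold, adjusted p = 6.85e-05), short of the fold of 1.5 with either extract. Without the third library of vehicle B the rise with EESF was 0.60, past that fold.

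ALDH1L2 (ENSG00000136010, chromosome 12, 105019784 to 105107643), which oxidizes formyl-tetrahydrofolate to carbon dioxide with NADPH as a product, was the lowest of the 10 per length. It had 23.2, 24.2 and 24.9 CPM in vehicle A and 68.6, 62.7 and 65.5 CPM at the high WESF dose, against 24.5, 26.1 and 25.1 CPM in vehicle B and 45.4, 43.0 and 40.0 CPM at the high EESF dose. The change was 1.45 ± 0.054 with WESF (2.72-fold, adjusted p = 7.97e-13, edgeR) and 0.76 ± 0.066 with EESF (1.69-fold, adjusted p = 1.47e-06), and no library of one group reached the other. WASHC4 and NOPCHAP1 overlap ALDH1L2 on the opposite strand, and whether strand was used in counting is not given in the sources used here. WASHC4, the more abundant of these neighbours at a mean of 84.6 CPM, had log2 fold changes of -0.00 (adjusted p = 0.995) and -0.21 (adjusted p = 0.0239), and NOPCHAP1, at 6.38 CPM, had 0.07 (adjusted p = 0.648) and 0.40 (adjusted p = 0.0121), with WESF and EESF respectively.

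ASNS (ENSG00000070669, chromosome 7, 97851677 to 97872542), which makes asparagine from aspartate with glutamine as the nitrogen donor, had the largest fold change of the 10 at both high doses. It had 55.7, 50.9 and 49.9 CPM in vehicle A and 160.4, 163 and 158 CPM at the high WESF dose. In batch B it had 54.2, 49.8 and 51.2 CPM in the vehicle and 121, 118 and 115 CPM at the high EESF dose. The libraries of each high-dose group lay close together and far above the vehicle. The log2 fold change was 1.62 ± 0.049 with WESF (3.07-fold, adjusted p = 5.03e-14, edgeR), rank 149 from the top of 13129 genes, and 1.19 ± 0.054 with EESF (2.28-fold, adjusted p = 1.07e-08), rank 234 of 13092.

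ASNS also had the largest change of the 10 at the medium doses. It had 62.8, 63.0 and 64.0 CPM at the medium WESF dose and 58.6, 61.4 and 59.4 CPM at the medium EESF dose, all above the vehicle libraries of their batch. These rises were 0.28 ± 0.049 (adjusted p = 0.00842, edgeR) and 0.21 ± 0.050 (adjusted p = 0.0111). The first was lost without the second library of vehicle A or the third of the medium WESF dose, and the second without the second library of vehicle B, with adjusted p up to 0.0679 and 0.0764. At the low doses ASNS had 50.1 to 57.8 CPM with WESF and 53.6 to 56.0 CPM with EESF, which overlapped the vehicles.

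Both steps from glutamate to proline rose, and the last step was as high with EESF as with WESF. ALDH18A1 (ENSG00000059573, chromosome 10, 95605941 to 95656711), the synthase that reduces glutamate to the proline precursor, had 129.8, 131 and 134 CPM in vehicle A and 232, 232 and 228 CPM at the high WESF dose. It had 131, 129.8 and 124 CPM in vehicle B and 176, 172 and 171 CPM at the high EESF dose. These groups were far apart, with a rise of 0.81 ± 0.041 with WESF (1.76-fold, adjusted p = 2.85e-11, edgeR) and 0.43 ± 0.048 with EESF (1.35-fold, adjusted p = 1.13e-05).

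PYCR1 (ENSG00000183010, chromosome 17, 81932384 to 81942412), the mitochondrial reductase that finishes proline, had 86.1, 82.3 and 78.9 CPM in vehicle A and 184, 175 and 169 CPM at the high WESF dose. It had 84.4, 77.0 and 77.0 CPM in vehicle B and 162, 179 and 175 CPM at the high EESF dose. The high-dose libraries of the 2 extracts overlapped each other and stood clear of the vehicles. PYCR1 rose by 1.09 ± 0.048 (2.13-fold, adjusted p = 5.07e-12, edgeR) and by 1.11 ± 0.059 (2.16-fold, adjusted p = 4.25e-08). At the medium doses it had 92.6, 95.8 and 90.4 CPM with WESF and 92.0, 88.9 and 89.2 CPM with EESF, with changes of 0.17 ± 0.046 (adjusted p = 0.0541) and 0.18 ± 0.049 (adjusted p = 0.0199). The EESF call at the medium dose was lost in 4 of its 12 alternatives, with an adjusted p up to 0.111. RSEM gave PYCR1 values that were not whole in 17 of 24 libraries. MYADML2, which overlaps PYCR1 on the same strand, had a mean of 2.26 counts beside the 2689 of PYCR1.

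**Figure D3:**
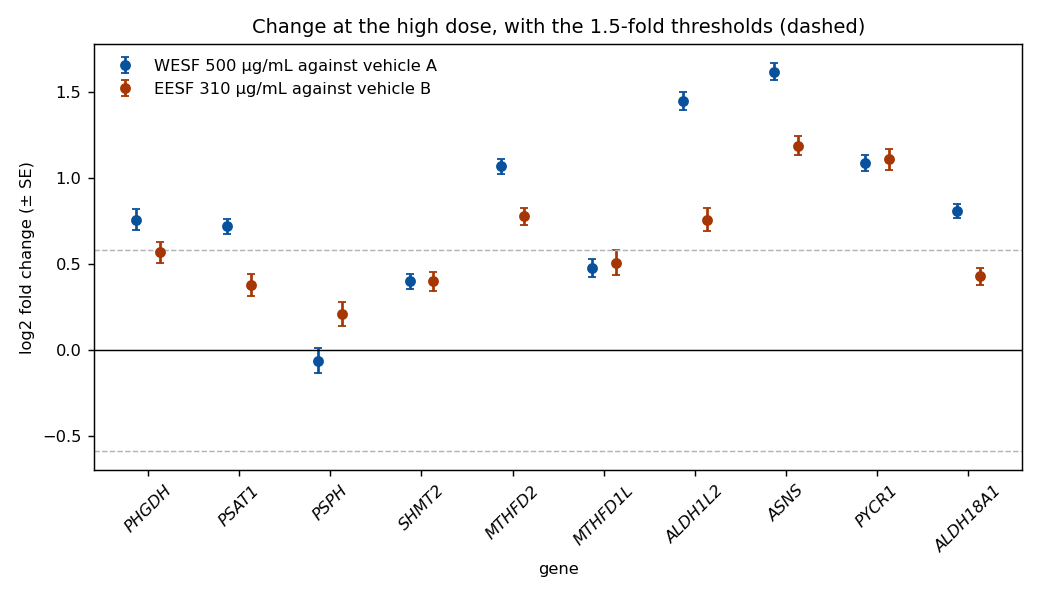
The log2 fold change at the high dose (vertical axis, ± SE, 3 libraries against 3) of each enzyme gene (horizontal axis), with WESF in blue and EESF in orange and dashed lines at a fold of 1.5. ASNS is highest with both extracts, the points of SHMT2, MTHFD1L and PYCR1 lie side by side, and those of ALDH1L2 lie farthest apart.

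The difference between the 2 extracts at their high doses was tested as a contrast in a fit of 12 libraries. Of the 10 genes, 5 had a smaller change with EESF, against 13.3% of 13376 genes with a lower value there, and none passed with a larger one. ALDH1L2 differed most, by -0.68 ± 0.084 on the log2 scale (adjusted p = 7.23e-05, edgeR), and was the 1 gene whose difference passed a fold of 1.5, against 1.75% of all genes. ASNS differed by -0.43 ± 0.069 (adjusted p = 0.000582), ALDH18A1 by -0.38 ± 0.055 (adjusted p = 0.000252), PSAT1 by -0.35 ± 0.077 (adjusted p = 0.00402) and MTHFD2 by -0.30 ± 0.057 (adjusted p = 0.00167). The other 5 did not pass. The 95% interval of the difference was -0.14 to 0.14 for SHMT2, -0.16 to 0.22 for MTHFD1L, -0.14 to 0.18 for PYCR1, -0.38 to 0.01 for PHGDH (adjusted p = 0.147) and 0.06 to 0.50 for PSPH (adjusted p = 0.0535). The difference for PSPH, larger with EESF, passed in 4 of its 17 alternatives, each with 1 library left out, with adjusted p between 0.029 and 0.146 over all of them. The doses of the 2 extracts differ.

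Over the 24 libraries the levels of 9 of the genes moved together, and PSPH did not. Pearson's r between any pair of the 9 on the log2 scale was between 0.77 (PSAT1 with MTHFD1L) and 0.99 (MTHFD2 with ASNS, ALDH1L2 with ALDH18A1), whereas PSPH had r between -0.15 and 0.26 with the others. These points share libraries and the step between the high dose and the rest, and r is given as a description. Among 9548 genes with a mean of at least 10 CPM, those most like ASNS were PLIN2 (r = 0.995), THBD (0.995), ASB1 (0.992), TRIB3 (0.992) and POLG (0.991). Those most like PYCR1 were MOGS (0.993), RCN3 (0.993), KRTAP2-3 (0.991), AKR1C1 (0.989) and PDIA4 (0.989), and those most like PHGDH were GRK2 (0.977), UBL4A (0.974), GOLGA2 (0.973), PPARD (0.972) and MKNK2 (0.972).

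The list of cytosolic folate genes mostly went the other way. It also holds MTRR, MAT2A and AHCY of the methionine cycle, and the counts and medians given here include them. Of 13 genes in that list 12 were tested, and at the high WESF dose 10 fell and 1 rose (34.6% of all genes fell), with a median log2 fold change of -0.38. At the high EESF dose 8 fell and 1 rose (28.7% of all genes fell), with a median of -0.21. TYMS, the thymidylate synthase, fell from 80.8, 78.5 and 76.0 CPM to 41.9, 43.9 and 42.1 CPM with WESF and from 84.8, 80.3 and 78.9 CPM to 49.0, 50.1 and 49.1 CPM with EESF. No treated library came near the vehicles, and the log2 fold change was -0.88 ± 0.047 (adjusted p = 5.28e-11, edgeR) and -0.72 ± 0.053 (adjusted p = 3.75e-07). SHMT1, the cytosolic counterpart of SHMT2, changed by -0.69 and -0.36, and MTHFD1, the cytosolic enzyme that takes up formate, by -0.50 and -0.38, each with an adjusted p under 0.05. MTR, the methionine synthase, was 0.15 (adjusted p = 0.0104) with WESF and -0.18 (adjusted p = 0.036) with EESF, and FPGS, which adds glutamates to folate, was -0.17 (adjusted p = 0.00462) and 0.15 (adjusted p = 0.0187). The EESF calls of MTR and FPGS were each lost in 5 of their 12 alternatives, and the WESF call of MTR in 1, without the first library of the high WESF dose (adjusted p = 0.0807).

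Of the other mitochondrial folate and glycine genes, 8 of 10 were tested, and 4 rose and 2 fell with WESF while 4 rose and 1 fell with EESF, with medians of 0.24 and 0.16. Over all genes 34.3% rose and 34.6% fell with WESF, and 29.3% rose and 28.7% fell with EESF, and with so few genes these counts are not far from those shares. SLC25A32, the carrier that brings folate into mitochondria, rose by 0.55 ± 0.048 (adjusted p = 2.47e-08, edgeR) and by 0.20 ± 0.066 (adjusted p = 0.0228), the latter a call lost in 5 of its 12 alternatives. MTHFD2L, the relative of MTHFD2, had 0.51 ± 0.12 (adjusted p = 0.00136) and 0.12 ± 0.10 (adjusted p = 0.349). AMT, a subunit of the glycine cleavage system, was 2.40 ± 0.151 CPM (SD, n = 3) in vehicle A and 3.10 ± 0.791, 3.47 ± 0.816 and 3.53 ± 0.204 CPM from the low to the high WESF dose, with a change of 0.55 ± 0.14 at the high dose. In batch B it had 4.31 ± 0.511, 3.99 ± 0.581 and 4.00 ± 0.957 CPM from the low to the high EESF dose against 2.20 ± 0.471 CPM in the vehicle. DLD, a subunit shared by that system and the pyruvate dehydrogenase complex, fell by 0.46 and by 0.32 on the log2 scale.

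**Figure D4:**
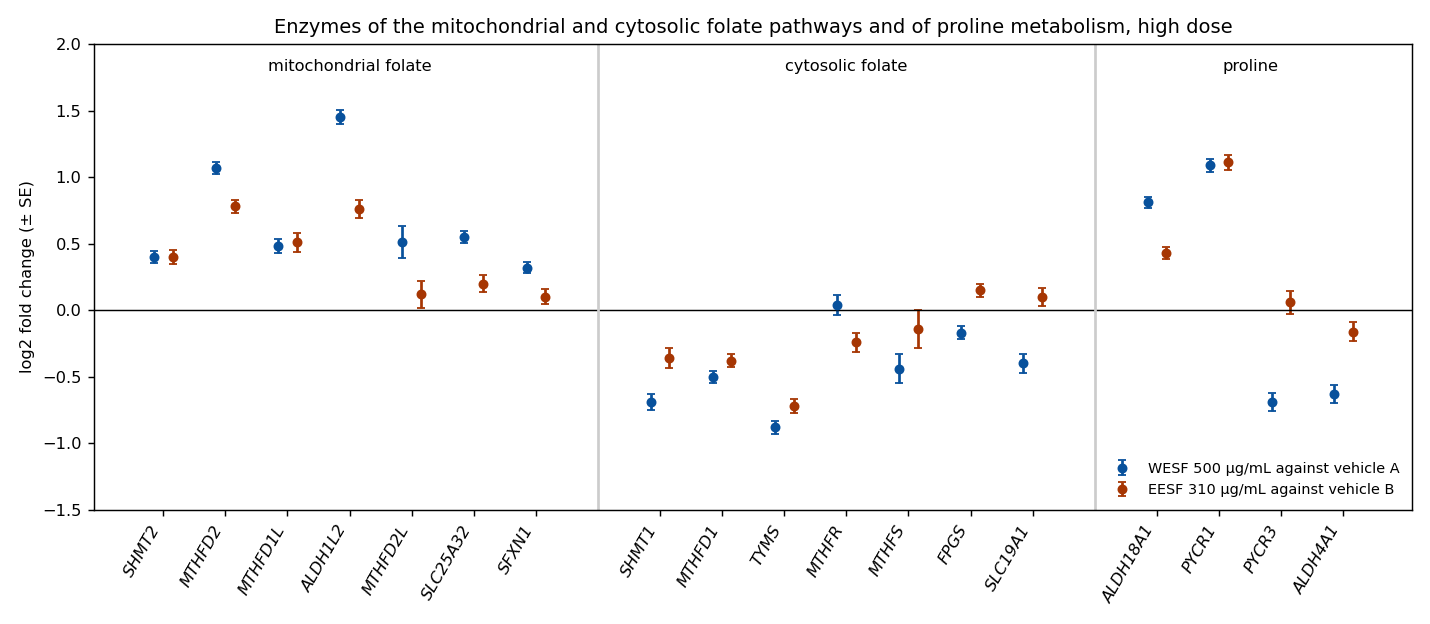
The log2 fold change at the high dose (vertical axis, ± SE, 3 libraries against 3) of enzymes and carriers of the mitochondrial folate pathway, of the cytosolic one and of proline metabolism (horizontal axis, in 3 blocks), with WESF in blue and EESF in orange. In the mitochondrial block SHMT2, MTHFD2, MTHFD1L and ALDH1L2 lie above 0 with both extracts, whereas TYMS, SHMT1 and MTHFD1 of the cytosolic block lie below 0.

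Of the genes that use serine, 9 of 10 were tested, with 5 rising and 4 falling at the high WESF dose and 2 rising and 3 falling with EESF, and medians of 0.14 and -0.03. All 9 passed with WESF, where 34.3% of all genes rose and 34.6% fell, and with EESF the counts were near the 29.3% and 28.7% of all genes. Both enzymes that join serine to homocysteine sulfur and make cysteine rose. CTH, the second of them, went from 6.56, 6.73 and 6.66 CPM to 21.2, 21.7 and 20.9 CPM with WESF and from 6.44, 6.80 and 7.09 CPM to 13.5, 12.8 and 12.2 CPM with EESF, a change of 1.67 ± 0.072 (adjusted p = 4.04e-12, edgeR) and 0.92 ± 0.088 (adjusted p = 3.07e-06). CBS, the first, rose by 0.94 ± 0.090 and 0.71 ± 0.087. PTDSS1, which places serine in phosphatidylserine, fell by 0.96 and by 0.58 on the log2 scale, and SDSL, a serine dehydratase-like gene, was -0.74 (adjusted p = 4.32e-05) with WESF and 0.06 (adjusted p = 0.655) with EESF. SERINC1 was 0.14 (adjusted p = 0.00773) and -0.23 (adjusted p = 0.00878).

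Around proline, 8 of 10 listed genes were tested, and 2 rose and 4 fell with WESF while 2 rose and 3 fell with EESF, with medians of -0.18 and -0.05. These counts were near the shares of all genes that rose and fell (34.3% and 34.6% with WESF, 29.3% and 28.7% with EESF). PYCR3, the cytosolic relative of PYCR1, went from 26.9, 23.4 and 25.4 CPM to 16.4, 14.6 and 15.9 CPM with WESF, a log2 fold change of -0.69 ± 0.069 (adjusted p = 1.34e-07, edgeR). With EESF PYCR3 was 0.06 ± 0.088 (adjusted p = 0.583), and the difference between the extracts was 0.75 ± 0.12 (adjusted p = 0.000455). ALDH4A1, which returns proline carbon to glutamate, was -0.63 (adjusted p = 2.01e-07) and -0.16 (adjusted p = 0.0729), and ARG2, the mitochondrial arginase, rose by 0.96 and 0.56.

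In the glutamate and aspartate list, 9 of 12 genes were tested, with 4 rising and 3 falling at the high WESF dose and 3 rising and 3 falling at the high EESF dose, and medians of 0.08 and -0.01, near the shares of all genes (34.3% and 34.6% with WESF, 29.3% and 28.7% with EESF). The mitochondrial aspartate carriers SLC25A12 and SLC25A13 changed by -1.09 ± 0.088 and -1.03 ± 0.060 with WESF and by -0.96 ± 0.096 and -0.70 ± 0.062 with EESF (largest adjusted p = 4.63e-06, edgeR). GOT1, the cytosolic aspartate transaminase, rose by 0.86 and 0.54, and ASRGL1, an asparaginase, fell by 1.00 and by 0.59 on the log2 scale. All 12 purine synthesis genes were tested, and 6 rose and 3 fell with WESF and 7 rose and 2 fell with EESF, with medians of 0.07 and 0.19, beside 34.3% of all genes rising and 34.6% falling with WESF and 29.3% and 28.7% with EESF. PPAT, the committed step, rose by 0.57 and 0.24, PRPS2, which makes the ribose donor, rose by 0.46 and 0.30, ADSL fell by 0.50 and by 0.23, and PFAS was -0.48 (adjusted p = 2.14e-07) and -0.03 (adjusted p = 0.594).

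Of 14 regulators of the amino acid and stress response, 12 rose and 1 fell at the high WESF dose, against 34.3% of all genes rising and 34.6% falling, and 9 rose and 1 fell at the high EESF dose, against 29.3% and 28.7%, with medians of 0.34 and 0.32. ATF4 itself had 146, 142 and 135 CPM in vehicle A and 241, 231 and 237 CPM at the high WESF dose, and 149, 141 and 136 CPM in vehicle B and 193, 205 and 215 CPM at the high EESF dose. Its transcript thus rose in every library, by 0.74 ± 0.044 (adjusted p = 1.95e-10, edgeR) and by 0.52 ± 0.057 (adjusted p = 9.2e-06). ATF3, a stress-induced relative, rose by 1.74 and 1.00, CEBPG, a dimer partner of ATF4, by 1.05 and 0.68, DDIT3, which encodes CHOP, by 0.62 and 0.76, and MYC by 0.77 and 0.37, while ATF5 fell by 0.95 and by 0.26 on the log2 scale. A list of 13 other known ATF4 targets rose whole at both high doses, against the same shares of all genes. Like the other lists, it was chosen with earlier results of these data known, so its count is a description. Its medians were 1.44 and 0.89, beside the 0.78 and 0.54 of the 10 enzymes. ADM2 rose by 2.26 and 1.68, DDIT4, an inhibitor of mTORC1 signalling, by 1.91 and 1.02, and TRIB3, a pseudokinase that restrains ATF4, by 1.84 and 1.42, and CTH (above) belongs to this list too. ATF4 is regulated mainly in translation, which these data do not measure.

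Of 9 markers of astrocytes and glioma, 4 were near 0 and 5 were expressed. GFAP, S100B, AQP4 and SLC1A2 were at no more than 0.401 CPM on average in either vehicle or high-dose group, and VIM, CD44, SOX9, SLC1A3 and NES were tested. VIM, the most abundant, was at 4821 CPM in vehicle A and 4796 CPM at the high WESF dose. In batch B it was at 4922 CPM in the vehicle (highest library 4941) and 5279 CPM at the high EESF dose (lowest library 5058). VIM passed at neither high dose. SLC1A3, CD44, SOX9 and NES fell at both high doses, so that 4 of the 5 tested fell, beside 34.6% of all genes with WESF and 28.7% with EESF. The summed level of the 9 markers was 7699 to 7842 CPM in vehicle A, 6486 to 6728 CPM at the high WESF dose, 7836 to 8011 CPM in vehicle B and 7270 to 7516 CPM at the high EESF dose. Of 10 markers of neurons, oligodendrocytes, leukocytes, endothelium and epithelium, whose most abundant gene in the vehicles was SNAP25 or SYT1, the sum was 68.4 to 74.8 CPM in the vehicles, 36.5 to 39.5 CPM at the high WESF dose and 36.8 to 41.2 CPM at the high EESF dose. Of these 10, 6 were tested at the high WESF dose, where 2 rose and 4 fell, and 5 at the high EESF dose, where 1 rose and 3 fell, beside the same shares of all genes. Their part in the changes of the enzymes was not tested.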

How the data were processed

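By the study's methods, the authors trimmed the reads (Trim Galore 0.6.6), aligned them with STAR 2.7.9a and estimated counts with RSEM 1.3.3. The deposited table holds expected counts per gene, with no normalization. RSEM divides reads that match several places, and 10.9% of the values are not whole. The methods name the genome as GRCh38 (hg19), and positions here are those of GENCODE 44 on GRCh38. Total expected counts were 18727797 to 32567395 per library. In batch B every library of the high EESF dose (29659110 to 32567395) was deeper than every vehicle library (18727797 to 20465712), and in batch A the high WESF libraries (20731749 to 24692309) were shallower than those of the vehicle (26447834 to 28461841).

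Expected counts were rounded. Protein-coding genes that passed filterByExpr were tested with edgeR 4.0.16 in R 4.3.3 (TMM, quasi-likelihood, 2-sided) on the 6 libraries of each comparison, and on 12 for the difference of extracts. The Benjamini-Hochberg adjustment ran over all genes tested. Genes rose or fell at an adjusted p under 0.05, and the further threshold was a fold of 1.5. The SE is the log2 fold change divided by the square root of F. CPM are scaled by TMM factors over all 24 libraries, whereas fold changes come from each fit. Likeness is Pearson's r over 24 libraries of log2(CPM + 1) less the mean of the batch's vehicle libraries. DESeq2 1.42.0, its size factors, no filter, all genes, all 4 groups of a batch, a replicate block and leaving out each library were alternatives.

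The 10 genes and all lists were chosen with earlier results of these data known. From each list up to 4 genes with the largest change among those that passed at a high dose were named, and those called in opposite directions, besides all 10 enzymes and ATF4, DDIT3, TRIB3, MYC, MTHFD1, SHMT1 and MTHFD2L. Some items that this rule names are not reported here.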

Additional observations from a re-analysis of the deposited data

Results flagged for a closer look

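The following genes were picked out because the change at the high EESF dose and the change at the high WESF dose differed in a test of the difference itself (edgeR, 12 libraries, 2-sided, adjusted p under 0.05), and extract, dose and batch cannot be told apart in it. Among the 10 enzymes, the log2 difference (EESF less WESF) was -0.68 for ALDH1L2, -0.43 for ASNS, -0.38 for ALDH18A1, -0.35 for PSAT1 and -0.30 for MTHFD2. Among the other named genes that rose more with WESF it was -0.89 for DDIT4, -0.75 for CTH, -0.74 for ATF3, -0.57 for ADM2, -0.42 for TRIB3, -0.39 for MYC, -0.37 for CEBPG, -0.35 for SLC25A32, -0.33 for PPAT, -0.32 for GOT1 and -0.22 for ATF4. The call of ATF4 was lost in 8 of its 17 alternatives. MTR at -0.33 and SERINC1 at -0.37 were above their vehicle with WESF and below it with EESF.

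Genes with a lower value under WESF had positive differences, of 0.80 for SDSL, 0.75 for PYCR3, 0.69 for ATF5, 0.47 for ALDH4A1, 0.45 for PFAS, 0.38 for PTDSS1, 0.34 for SLC25A13, 0.33 for SHMT1, 0.33 for FPGS and 0.27 for ADSL.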

How the results depend on the processing

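Every call of the enzymes at the high WESF dose held in each alternative, and at the high EESF dose every call but that of PSPH did. Past the fold of 1.5 as well were 4 to 5 enzymes at the high EESF dose when a library was left out, the fifth being MTHFD1L (0.60) without the third library of vehicle B and PHGDH (0.60) without the first of the high EESF dose. At the medium WESF dose 2 genes passed, in place of 1, with the DESeq2 Wald test, with no filter on low counts and in the fit of all 4 groups of the batch (PYCR1 beside ASNS), and 0 to 2 did when a library was left out. At the medium EESF dose 0 to 2 passed when a library was left out, and at the low EESF dose 0 to 1. The median of the 10 at the medium EESF dose was 0.06 with the DESeq2 Wald test, with DESeq2's size factors and with all 4 groups, 0.05 with all genes of the table, and 0.04 to 0.08 when a library was left out. At the medium WESF dose it was 0.06 to 0.11.
Signs that turned belonged to values near 0 that passed no threshold. PSAT1 at the low WESF dose was -0.00 with the DESeq2 Wald test, DESeq2's size factors and all genes and -0.01 with all 4 groups, ALDH18A1 there was -0.00 with all 4 groups, and PSAT1 at the medium EESF dose was -0.01 with all genes. When a library was left out, the log2 fold change ranged at the high WESF dose from -0.12 to 0.00 for PSPH, and at the high EESF dose from -0.04 to 0.12 for PYCR3 and from -0.02 to 0.12 for SDSL. At the low WESF dose it ranged from -0.02 to 0.03 for ALDH18A1, -0.03 to 0.02 for PSAT1, -0.08 to 0.04 for PSPH and -0.01 to 0.04 for SHMT2, and at the medium WESF dose from -0.06 to 0.05 for PHGDH. At the medium EESF dose it ranged from -0.07 to 0.01 for ALDH1L2, -0.02 to 0.01 for MTHFD2 and -0.02 to 0.04 for PSAT1, and at the low EESF dose from -0.03 to 0.13 for MTHFD1L. For vehicle B against vehicle A it ranged from -0.05 to 0.04 for ASNS, -0.14 to 0.01 for MTHFD1L and -0.05 to 0.02 for SHMT2, and for the high against the low WESF dose from -0.09 to 0.01 for PSPH. The difference of the extracts ranged from -0.03 to 0.12 for MTHFD1L, -0.01 to 0.06 for PYCR1 and -0.03 to 0.04 for SHMT2. The cause was not tested. The difference for ATF4 (-0.22) lost its call in 8 of its 17 alternatives, with an adjusted p up to 0.0972. For the difference of the extracts 5 to 6 of the 10 enzymes passed when a library was left out, the sixth being PSPH.

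Libraries with the same replicate number showed no steady pairing. The correlation of their deviations from the group means was -0.49 to 0.24, and in 0 of 8 comparisons was every pair over 0.1. Deviations from a mean of 3 libraries constrain one another, so these values cannot tell whether the libraries were paired by design. With the number as a replicate block, 9 enzymes passed at the high WESF dose and 9 at the high EESF dose, where PSPH no longer did.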
